A study of Rattus norvegicus with 6 samples.

Results

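Genes of the extracellular matrix and of cell adhesion were examined among the predicted targets of the microRNAs (miRNAs) that differed between rat cardiac stem cells (CSCs) with and without exosomes of mesenchymal stem cells (MSCs). A gene was taken as a member when its symbol in the authors' deposited table of predicted pairs began with the letters of a collagen, integrin, numbered cadherin, protocadherin, laminin, ADAM, matrix metalloproteinase, TIMP or claudin gene. This gave 42 of the 4260 genes of that table, in 59 of its 6133 pairs of a miRNA and a gene and with 61 of its 6476 predicted sites. No mRNA or protein was measured. Every value below is therefore either a feature of a predicted site or the array signal of the miRNA predicted to bind it, and whether the level of any of the 42 genes differed is not known from these data.

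The extracellular matrix is a network of collagens, laminins and other proteins that holds tissue together and that cells grip through integrins, receptors made of an alpha and a beta chain. Cadherins and claudins join cells to each other, whereas metalloproteinases of the MMP, ADAM and ADAMTS families cut matrix and surface proteins and are held in check by TIMP inhibitors. In the heart this system sets the stiffness of the wall, the scar after injury and the movement of progenitor cells. A miRNA lowers the output of an mRNA mainly by pairing through its seed, bases 2 to 8 from its 5′ end, with a short stretch of that mRNA.

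The CSCs came from heart tissue of 4-week-old Sprague Dawley animals, and each group was measured on 3 Affymetrix miRNA arrays, 6 in all. The treated group was grown for 3 days in medium with exosomes extracted with Exo-Quick-TC from bone marrow MSCs at passage 4, and the other group had no exosomes. Cells given precipitate without vesicles are not among the groups, and no label states that replicate arrays stand for independent cultures. A p-value here thus covers only array-to-array spread, possibly technical, and 3 arrays a group limit how precise any mean can be. The files name only the 22 listed miRNAs among the 728 mature probe sets, none of them a marker of muscle, endothelial, blood or neural cells, so the cell type was not checked.

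The authors listed 22 miRNAs with an unadjusted p under 0.05 on these arrays, and the targets were predicted for these alone. In what follows a miRNA is called higher or lower by the sign of its mean log2 signal with exosomes minus that without. In limma, the adjusted p was under 0.05 for 0 of 728 mature probe sets (0%) and the unadjusted p for 106 (14.6%), of which 88 were higher (12.1% of those tested) and 18 lower (2.47%). Of the 22, 15 have a member among their predicted targets, namely all 5 lower ones and 10 of the 17 higher ones. All 15 had an unadjusted p under 0.05 in limma and an adjusted p between 0.228 and 0.31, and the groups did not overlap for 14 of them; the authors' list was chosen by this contrast, so nothing is read from these counts. Over all mature miRNAs the groups did not overlap for 15.9% in the higher and 3.71% in the lower direction.

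The mature sequences of the 9 miRNAs with 3 or more members, and of miR-181c-5p because it shares a seed with miR-181b-5p, are given from the authors' table, 5′ to 3′, with the seed in capitals, because the predicted sites below are read against them. The first 5 are the lower miRNAs and the rest are higher ones.
miR-328a-5p: gGGGGGCAggaggggcuca
miR-326-5p: gGGGGCAGggccuuugugaa
miR-760-3p: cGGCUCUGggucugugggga
miR-207: cUUCUCCUggcucuccucccuuu
miR-702-5p: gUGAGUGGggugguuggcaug
miR-330-3p: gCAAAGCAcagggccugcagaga
miR-500-5p: aAUCCUUGcuaucugggugcuuag
miR-362-5p: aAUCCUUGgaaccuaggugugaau
miR-181b-5p: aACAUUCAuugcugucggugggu
miR-181c-5p: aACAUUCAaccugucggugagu
Of the 22 sequences, 20 were identical to mature miRNAs of the RefSeq table of build GRCr8. miR-500-5p and miR-362-5p share the seed AUCCUUG and together hold 8 of the 59 pairs, and the miR-181 pair shares the seed ACAUUCA and holds 4. miR-326-5p and miR-328a-5p have different seeds, but the first 9 bases of miR-326-5p, GGGGGCAGG, recur in miR-328a-5p from its base 2. The 5 lower miRNAs had a GC content of 56.5% to 78.9%, and the 10 higher ones of 41.7% to 60.9%.

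Lower miRNAs accounted for 34 of the 59 pairs, or 57.6%, beside 54.7% over all pairs of the table. miR-328a-5p had most members, 11 of its 672 predicted genes, and miR-760-3p followed with 7 of 748. miR-207 was predicted for 6 members, and miR-326-5p, miR-702-5p, miR-330-3p and miR-500-5p for 5 each. Members made up 0.962% of all pairs, and between 0.704% (miR-503-5p) and 1.87% (miR-500-5p) of the predicted genes of each of the 15 miRNAs. The 7 listed miRNAs without a member, among them miR-18a-5p, miR-106b-3p and let-7i-3p, are all higher ones and hold 731 predicted pairs together. Of the 42 genes, 20 were predicted for lower miRNAs alone (47.6%, beside 46.0% of all genes), 16 for higher ones alone (38.1%, beside 36.9%) and 6 for both (14.3%, beside 17.1%). Matrix and adhesion genes were thus divided between directions in much the proportions of the whole table. No enrichment was tested.

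**Figure D1:**
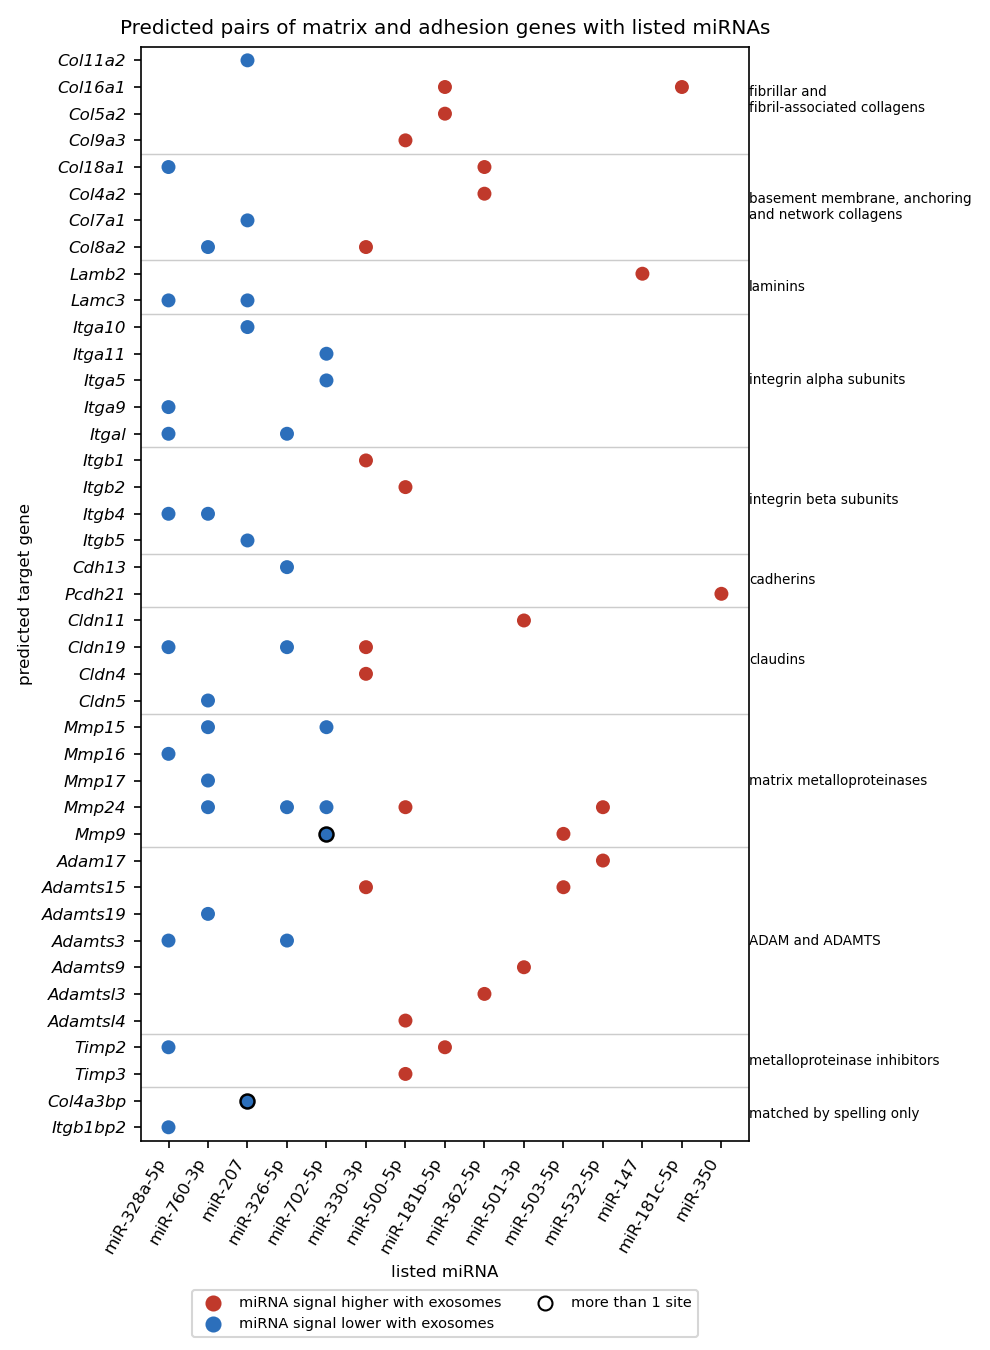
Each point is a predicted pair of a matrix or adhesion gene (vertical axis, grouped by role) and a listed miRNA (horizontal axis), blue where the miRNA's signal was lower with exosomes and red where it was higher, with a black rim where the pair has more than 1 site; 41 of the 42 genes are drawn. Mmp24 has 5 points, and all 5 integrin alpha subunits lie in the blue columns.

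The signals of the targeting miRNAs set how much weight a direction can carry. miR-328a-5p, predicted for 11 members, had log2 signals of 6.85, 6.76 and 8.23 with exosomes and of 9.16, 8.35 and 8.62 without. The exosome arrays all lay below the untreated ones, though exosome replicate 3 came within reach of untreated replicate 2. Its difference was -1.43 ± 0.44 log2 (SE, n = 3 per group; limma adjusted p = 0.288).

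miR-760-3p had 4.38, 4.4 and 4.07 with exosomes against 4.69, 4.91 and 5.52 without, with no overlap and a difference of -0.76 ± 0.24 log2 (SE; limma adjusted p = 0.291). miR-326-5p had 1.64, 2.41 and 4.72 against 6.04, 5.47 and 5.35, a difference of -2.70 ± 0.77 log2 (SE; limma adjusted p = 0.288). Treated arrays ranged more widely than the gap between groups, and with signals under 4 set to 4 the difference was -1.38 log2. miR-702-5p had 2.94, 2.75 and 3.21 against 3.65, 3.82 and 3.19, so that exosome replicate 3 lay above untreated replicate 3 (difference -0.59 ± 0.21 log2, SE; limma adjusted p = 0.31).

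miR-207 had 0.54, 0.4 and 1.46 with exosomes and was called detected on 0 of those 3 arrays, against 2.76, 1.89 and 1.64 on the 3 untreated arrays, all called detected. Each exosome array was also set at the higher of the miR-207 signal and the lowest signal called detected among the listed miRNAs. The mean of miR-207 was then 1.31-fold lower with exosomes, a ratio of means without a spread. The groups overlapped in this setting, with exosome replicates 2 and 3 at 1.83 and 1.65 and untreated replicate 3 at 1.64. That detection level also belongs to other probe sets, so 1.31-fold is not a firm lower limit. The limma fit was made on the signals as deposited, where the difference was -1.30 ± 0.39 log2 (SE; adjusted p = 0.288). All signals of miR-207 and miR-702-5p were under a log2 of 4. These 2 dim miRNAs carry 11 of the 34 lower pairs, among them those of Col7a1, Col11a2, Itga5, Itga10, Itga11 and Itgb5.

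Of the miRNAs with more signal after exosomes, miR-330-3p had 5.58, 5.82 and 5.88 with exosomes and 4.75, 4.97 and 5.29 without, a difference of 0.75 ± 0.18 log2 (SE; limma adjusted p = 0.248). Quantile normalization lowered this value to 0.32 log2, and centring each array on its bright miRNAs (mean signal of at least 5), a setting chosen after seeing the data, to 0.2 log2. miR-500-5p had 3.89, 4.42 and 4.18 against 3.29, 3.3 and 2.88, a difference of 1.01 ± 0.20 log2 (SE; limma adjusted p = 0.228), which was 0.2 log2 with signals under 4 set to 4 and 0.46 log2 with centring on bright miRNAs. The groups did not overlap for either of these miRNAs.

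miR-362-5p had 7.1, 7.5 and 7.15 against 6.25, 6.7 and 6.41, a difference of 0.8 ± 0.18 log2 (SE; limma adjusted p = 0.248), which was 0.28 log2 after quantile normalization and 0.25 log2 with centring on bright miRNAs. miR-181b-5p had 11.7, 11.7 and 11.29 against 10.83, 10.66 and 10.64, a difference of 0.86 ± 0.16 log2 (SE; limma adjusted p = 0.228), which was 0.52 log2 and 0.31 log2 under the same settings. The other 6 higher miRNAs, miR-147, miR-181c-5p, miR-350, miR-501-3p, miR-503-5p and miR-532-5p, had 9 member pairs together and differed by 0.82 to 2.16 log2. After quantile normalization these 6 differed by 0.29 to 1.91 log2, and with centring on bright miRNAs by 0.27 to 1.61 log2. The smallest of them came from miR-532-5p and miR-350, and the difference of miR-147 was 0.82 log2 with signals under 4 set to 4. With centring on bright miRNAs, 7 of the 10 higher miRNAs had an unadjusted p above 0.05 in limma (0.161 to 0.45), and the 5 lower ones differed by -3.25 to -1.14 log2. Without exosome replicate 3, 4 of the 15 had an adjusted p under 0.05 in limma, beside 23 of the 728 mature miRNAs (3.16%): miR-326-5p (0.00791), miR-181b-5p (0.0384), miR-328a-5p (0.0329) and miR-181c-5p (0.0445). These 4 hold 20 of the 59 pairs. The 15 come from a list chosen by this contrast on the same arrays, so nothing is read from their count beside 3.16%. No other array, when left out, gave a targeting miRNA under that threshold.

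**Figure D2:**
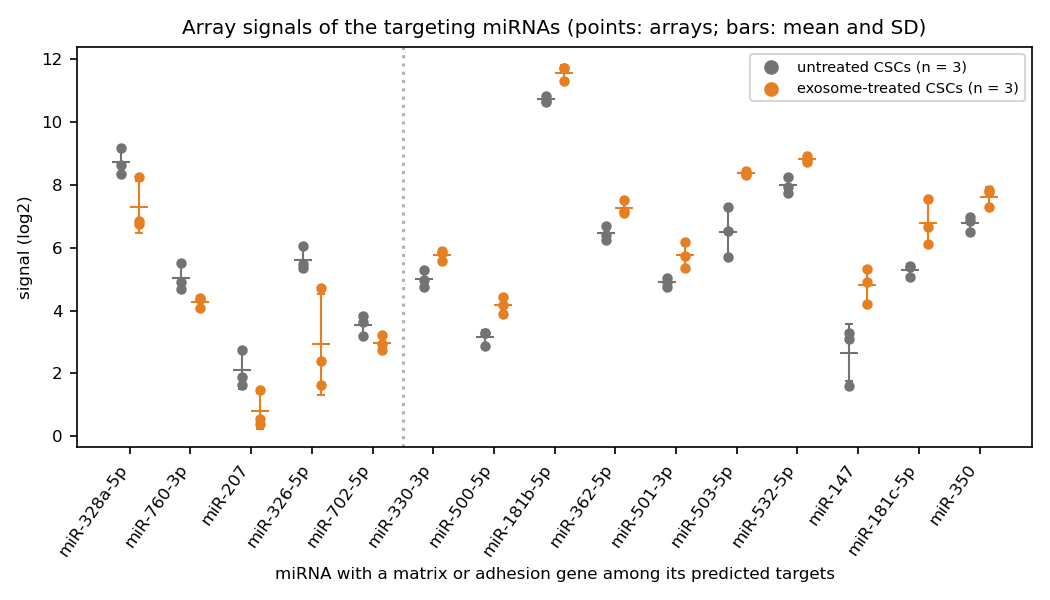
Log2 signals (vertical axis) of the 15 miRNAs that have a matrix or adhesion gene among their predicted targets, on 3 untreated (grey) and 3 exosome-treated (orange) arrays, with the mean and SD of each group; the dotted line separates the 5 lower miRNAs from the 10 higher ones. The groups overlap for miR-702-5p, and the exosome arrays of miR-326-5p spread from 1.64 to 4.72.

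The structural collagens form the first role. Of the 8 collagen genes, with 11 pairs, 7 pairs were with higher miRNAs and 4 with lower ones. Over all pairs the shares were 45.3% and 54.7%, and the split was not tested. Col16a1, a collagen attached to fibrils, was predicted for miR-181b-5p with a miRanda alignment score of 163 and for miR-181c-5p with 170. The score sums matches and gaps along the duplex, more at the 5′ end of the miRNA, and the free energy estimates the stability of the duplex, a lower value being a more stable one (the deposited table states no unit). Energies of the 2 Col16a1 sites were -22.83 and -26.17. Both miRNAs were placed on the same 24 bases, positions 59 to 82 of the sequence searched, so that the pairs are not separate sites.
Col16a1, site of miR-181b-5p and miR-181c-5p: ggactctgacaggttgTGAATGTt
Capitals mark the bases opposite the seed here and in the sites that follow. Col5a2, a chain of the fibrillar collagen that regulates fibril width, was predicted for miR-181b-5p with a score of 156, and the seed was not paired in full. Col9a3, from cartilage fibrils, was predicted for miR-500-5p (153) and Col11a2, another cartilage collagen, for miR-207 (152), both with a G:U pair in the seed.

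Col4a2 and Col18a1, collagens of basement membranes, were each predicted for miR-362-5p, with scores of 151 and 159 and an unbroken seed. Col18a1 was also predicted for miR-328a-5p (156, energy -28.07), so that miRNAs of both directions are placed on it. Col8a2, which forms the network of the corneal endothelial membrane, was predicted for miR-330-3p (151) and for miR-760-3p (163). Its site for miR-760-3p is an 8mer, meaning seed pairing with an A opposite base 1 of the miRNA. Col7a1, the collagen of anchoring fibrils under epithelia, had among the members the second highest score, 170, level with Col16a1, for miR-207, with an energy of -31.47.
Col8a2, site of miR-760-3p: tttacacagattgCAGAGCCa
Col7a1, site of miR-207: cccccgaggggagaaAGGAGAAg

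Laminins assemble from alpha, beta and gamma chains and anchor cells to basement membranes. Lamb2, a beta chain found at the neuromuscular junction and the kidney filter, was predicted for the higher miR-147 (score 162, energy -20.74). Lamc3, a gamma chain, was predicted for the lower miR-207 (162, energy -25.42) and miR-328a-5p (155, energy -28.82). The sites of both genes had an unbroken seed, and those in Lamc3 did not overlap.

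Integrins, the receptors for these matrix proteins, had 11 pairs over 9 genes. Of these pairs, 9 were with lower miRNAs, beside 54.7% over all pairs. All 5 alpha subunits were predicted for lower miRNAs alone, as were 46.0% of all genes. These splits were not tested. Itga5, which with Itgb1 forms the main fibronectin receptor, and Itga11, a collagen receptor of fibroblasts, were predicted for miR-702-5p, each with a score of 163 and energies of -28.84 and -29.13. Itga10, another collagen receptor, was predicted for miR-207 with an 8mer site (158). Itga9, which binds tenascin, was predicted for miR-328a-5p (152, energy -31.47) with a G:U pair in the seed.
Itga5, site of miR-702-5p: agtgcaataaaccCCACTCAc
Itga11, site of miR-702-5p: agcagtaaccaccacCCACTCAc
Itga10, site of miR-207: gaaaaaaggagggAGGAGAAa
Among the 5 alpha subunits, the pairs of Itga5, Itga10 and Itga11 rest on the dim miR-702-5p and miR-207 described above. Itgal, the alpha chain of a leukocyte integrin, was predicted for miR-326-5p and miR-328a-5p, whose sites share 18 bases.

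The beta subunits were divided. Itgb1, the shared partner of Itga5, Itga9, Itga10 and Itga11, was predicted for the higher miR-330-3p (score 156, energy -24.33), whereas these 4 alpha chains were predicted for lower miRNAs. Likewise Itgb2, the partner of Itgal, was predicted for the higher miR-500-5p (158) and Itgal for lower ones. The difference of miR-330-3p was only 0.2 log2 with centring on bright miRNAs, and that of miR-500-5p 0.2 log2 with signals under 4 set to 4. These opposite directions were not tested. Itgb4, the beta chain of epithelial hemidesmosomes, was predicted for miR-328a-5p and miR-760-3p, and Itgb5, a vitronectin receptor chain, for miR-207 (153). The Itgb4 site of miR-328a-5p had the lowest energy of all 61 member sites, -38.66, although G:U pairing interrupts its seed and its score was 156.
Itgb1, site of miR-330-3p: gtggagcaggggcctgttcTGCTTTGt
Itgb2, site of miR-500-5p: gctagccccagtgctgcCAAGGATc
Itgb4, site of miR-328a-5p: tgggcccctcctTGCCTCCt

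**Figure D3:**
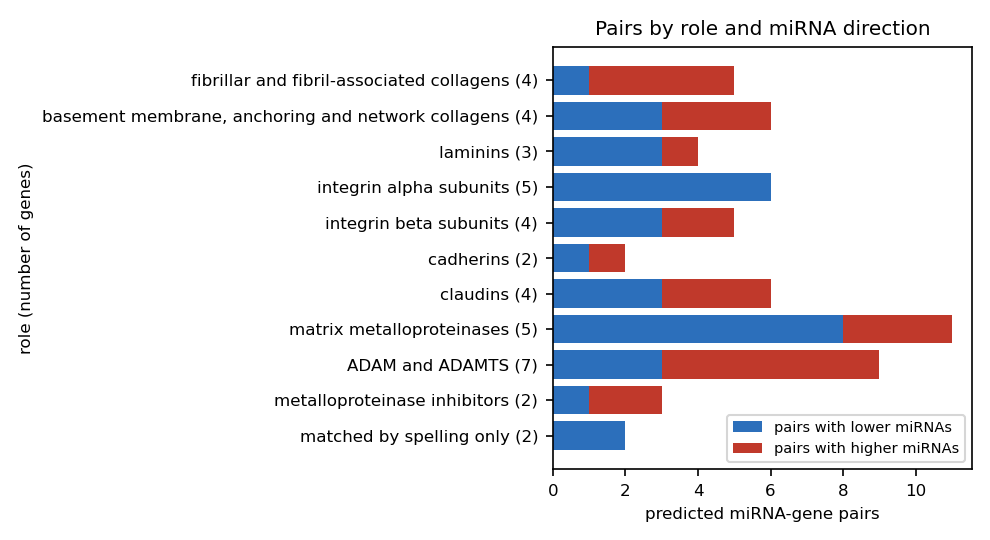
Predicted pairs (horizontal axis, number of miRNA-gene pairs) in each role, with the number of genes in brackets, blue for lower and red for higher miRNAs. The 6 pairs of the integrin alpha subunits are all blue, whereas 6 of the 9 pairs of ADAM and ADAMTS genes are red. Over all pairs 54.7% were with lower miRNAs, and differences between roles were not tested.

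Genes of contacts between cells were fewer. Cdh13, a cadherin held in the membrane by a lipid anchor and a receptor for adiponectin in heart and vessels, was predicted for miR-326-5p with an 8mer site (156, energy -30.33). Pcdh21, the photoreceptor cadherin whose current symbol is Cdhr1, was predicted for miR-350 (166) with a G:U pair in the seed. Claudins, which seal tight junctions, had 4 genes and 6 pairs, 3 in each direction. Cldn5, the main claudin of endothelium, was predicted for miR-760-3p (161). Cldn4 and Cldn11, of epithelia and of myelin, were predicted for miR-330-3p (151) and miR-501-3p (154). Cldn19, a claudin of the kidney tubule, was predicted for miR-330-3p, miR-326-5p and miR-328a-5p, and its site for miR-326-5p had the second lowest energy of the members, -34.31, with a score of 166.
Cdh13, site of miR-326-5p: ttcacaaccaggcctcaaCTGCCCCa
Cldn5, site of miR-760-3p: ggcctgtaggtacCAGAGCCt
Cldn19, site of miR-326-5p: cccagccaggccCTGCCCCc
Cldn19, site of miR-328a-5p: ccagccaggcccTGCCCCCt
The Cldn19 sites of miR-326-5p and miR-328a-5p are 1 stretch, read with a shift of 1 base.

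Matrix metalloproteinases had 11 pairs over 5 genes, 8 of them with lower miRNAs (72.7%, beside 54.7% over all pairs). Of these 8, 3 belong to Mmp24, and the split was not tested. Mmp24, a protease bound to the cell membrane, was predicted for 5 of the 22 miRNAs, the most of any member: for miR-326-5p, miR-702-5p and miR-760-3p among the lower ones and for miR-500-5p and miR-532-5p among the higher ones. Its 5 sites do not overlap. Their scores ran from 152 to 165 and their energies from -27.39 to -23.30. The miR-760-3p site begins at the first base of the sequence searched and comprises 14 bases, because the alignment runs past its end. The miR-532-5p site has Watson-Crick pairs at bases 2 to 7 and a G:U pair at base 8.
Mmp24, site of miR-500-5p: ccaggccctgtcaggaggCAAGGATc
Mmp24, site of miR-532-5p: tcagtttcagactgGAGGCATg
Mmp24, site of miR-326-5p: agcacaaggaggtcttatCTGCCCCt
Mmp24, site of miR-702-5p: tagctcacacctgtCCACTCAc

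Mmp15, Mmp16 and Mmp17 are membrane-bound proteases as well, and all 4 of their pairs were with lower miRNAs. Mmp15 was predicted for miR-702-5p (155) and miR-760-3p (153), Mmp16 for miR-328a-5p (157, energy -32.12) and Mmp17 for miR-760-3p (152). The Mmp16 and Mmp17 sites hold a G:U pair in the seed. Mmp9, a secreted gelatinase of inflammation and wound repair, was predicted for the higher miR-503-5p (151) and for the lower miR-702-5p at 2 sites (153 and 159), the only member of the families with 2 sites for the same miRNA. The miR-503-5p site does not pair with the whole seed.

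ADAM and ADAMTS genes, by contrast in count, had 6 of 9 pairs with higher miRNAs, beside 45.3% over all pairs. The difference from the MMP genes was not tested. Adam17, the sheddase that releases tumour necrosis factor, was predicted for miR-532-5p (160). Adamts15, which cuts large proteoglycans, was predicted for miR-330-3p with the highest score among members, 171, at an 8mer site, and for miR-503-5p (153). Adamts9, of the same substrate group, was predicted for miR-501-3p (152), and Adamtsl3 and Adamtsl4, which resemble ADAMTS proteins but lack the protease domain, for miR-362-5p (153) and miR-500-5p (156, energy -32.24). Adamts3, which trims procollagen, was predicted for miR-326-5p and miR-328a-5p on a shared stretch, and Adamts19 for miR-760-3p (154).
Adam17, site of miR-532-5p: gaactctagaacacAAGGCATg
Adamts15, site of miR-330-3p: tcgttgtggcccctgaTGCTTTGa
Adamts15, site of miR-503-5p: cctctattctaaaccCGCTGCTg
The 2 Adamts15 sites lie at positions 21 to 43 and 641 to 664 and do not overlap.

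Of the inhibitors, Timp2 was predicted for miR-328a-5p (151) and for miR-181b-5p (153), 1 miRNA of each direction. Timp3, the matrix-bound inhibitor that also acts on Adam17, was predicted for miR-500-5p (154). The sites of miR-181b-5p in Timp2 and of miR-500-5p in Timp3 each break the seed by a mismatch, so that 1 of the 3 TIMP sites pairs with a whole seed.
Timp3, site of miR-500-5p: ccaagtacacaggaagCATGGATa
The remaining symbols match the families by spelling only. Col4a3bp, now Cert1, encodes a ceramide transfer protein and was predicted for miR-207 at 2 sites, and Itgb1bp2 encodes melusin, a muscle protein that binds the tail of beta integrins, and was predicted for miR-328a-5p. Without these 2 genes lower miRNAs held 56.1% of the pairs.

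The 61 member sites lay close to all sites in median score and median energy. The median score was 155, beside 156 over all 6476 sites, and the median energy was -24.87, beside -24.83. Many sites lay just above the authors' limit: 27 of the 61 (44.3%) scored 153 or less, the lower quartile of all sites, beside 31.7% of all sites, and 15 (24.6%) scored 160 or more, beside 29.3%. The seed was paired without a break at 44 of the 61 sites (72.1%), beside 69.6% of all sites. Of these 44, 5 were 8mers (8.2% of member sites, beside 17.0% of all sites), in Adamts15, Cdh13, Col8a2, Itga10 and Itgb4. At 11 sites a G:U pair stood among bases 2 to 7 with no gap or mismatch, at 5 the seed held a gap or mismatch, and the remaining site, of miR-532-5p in Mmp24, had its G:U pair at base 8. These shares describe the table and were not tested.

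Energy followed the miRNA's direction. Sites of lower miRNAs in members had a median energy of -26.4 (36 sites) and sites of higher ones of -23.86 (25 sites), and over the whole table the medians were -26.54 and -23.02. The GC content of the sites was 58.1% and 54.2% at the median in members, and 61.9% and 52.2% over all sites, so that energy and GC content moved together with direction; their part in the difference was not tested. A stricter energy limit of -25 therefore kept 24 of 34 lower pairs and 6 of 25 higher ones, and the share of lower pairs became 80.0%, beside 73.1% for all pairs under that limit. A score limit of 160 kept 15 pairs, 7 of them with lower miRNAs (46.7%, beside 47.0% for all pairs under that limit).

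**Figure D4:**
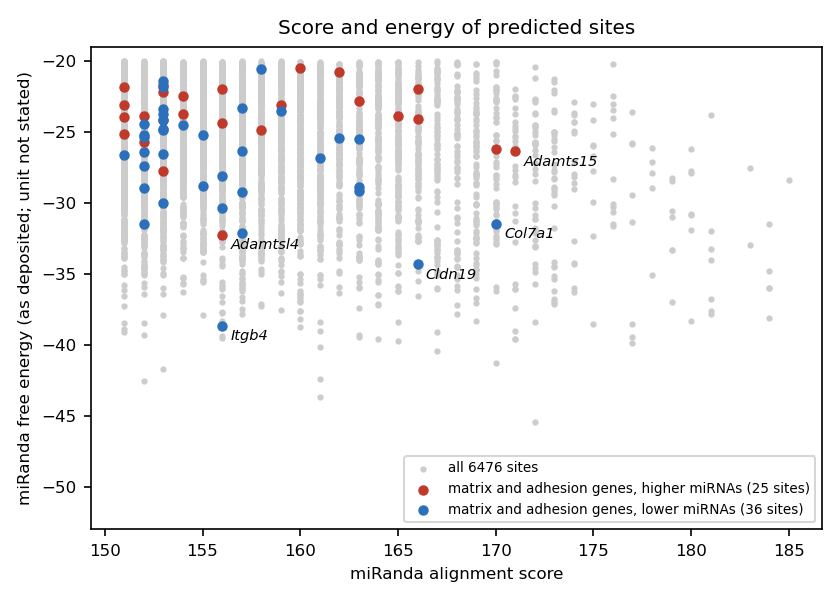
Free energy (vertical axis, as deposited with no unit stated, lower is more stable) against alignment score (horizontal axis) of all 6476 predicted sites in grey and of the 61 sites in matrix and adhesion genes, blue for the 36 sites of lower and red for the 25 sites of higher miRNAs. The Itgb4 site reaches -38.66, and the Adamts15 site has a score of 171.

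Predictions for several miRNAs were not always separate. Of the 42 genes, 13 (31.0%) were predicted for 2 or more of the listed miRNAs, beside 30.7% of all genes, which makes 24 combinations of 2 miRNAs in a gene. In 4 of the 24 (16.7%) the sites shared at least 1 base, beside 9.24% of the 2683 combinations in the whole table. They were the 18, 19 and 18 bases shared by miR-326-5p and miR-328a-5p in Adamts3, Cldn19 and Itgal, and the 24 bases shared by the miR-181 pair in Col16a1. Wherever miR-326-5p and miR-328a-5p were predicted for the same member, their sites overlapped, 3 of 3. Over the whole table they did so in 99 of 156 genes (63.5%).
Adamts3, site of miR-326-5p: tcccctggggctgCTGCCCCc
Adamts3, site of miR-328a-5p: cctggggctgcTGCCCCCt
Itgal, site of miR-326-5p: cccagggatgcttCTGCCCCc
Itgal, site of miR-328a-5p: agggatgcttcTGCCCCCt
In each of the 3 genes both G-rich miRNAs pair with the same C-rich run. With overlapping sites counted once, 23.8% of the members had 2 or more separately placed miRNAs. Sites of a higher and of a lower miRNA in the same gene (Cldn19, Col8a2, Col18a1, Mmp9, Mmp24 and Timp2) did not overlap in any of these 6 genes.

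**Figure D5:**
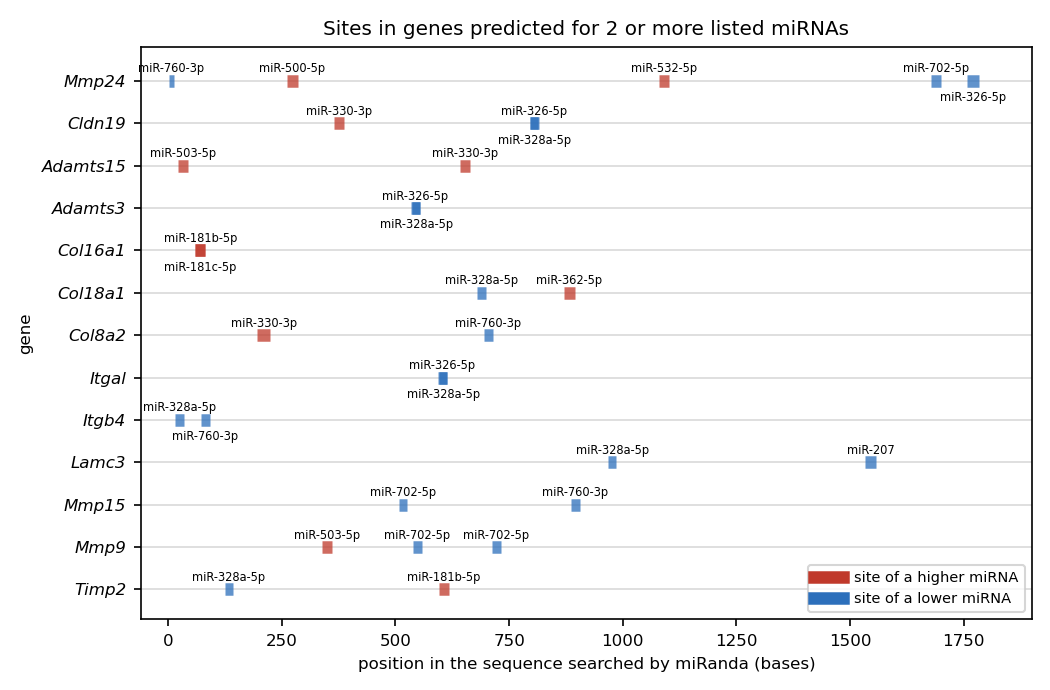
Positions of the predicted sites (horizontal axis, bases from the start of the sequence searched) in the 13 members predicted for 2 or more listed miRNAs, blue for lower and red for higher miRNAs. Sites of miR-326-5p and miR-328a-5p lie on top of each other in Adamts3, Cldn19 and Itgal, and the 5 sites of Mmp24 are spread from base 1 to base 1783.

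Set against the current RefSeq annotation of the rat, 40 of the 42 symbols are in use, and these are 14.7% of the 273 protein-coding genes whose symbols fit the same rule. Over all protein-coding genes the share found in the table was 14.4%. By family it was 50.0% for TIMP genes (2 of 4), 33.3% for integrin symbols (10 of 30, Itgb1bp2 included), 27.3% for laminins (3 of 11), 20.8% for MMP genes (5 of 24), 18.2% for collagens (8 of 44), 12.7% for ADAM and ADAMTS genes (7 of 55), 12.5% for claudins (4 of 32) and 4.35% for numbered cadherins (1 of 23). Among 50 genes whose current symbol begins with Pcdh, 0 were members. A current protein-coding symbol was matched by 3327 of the 4260 predicted genes, a smaller part than of the members, so that the overall share is not on the same footing as theirs. Which genes were searched is not given in these sources, and no family is called over- or underrepresented.

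Other matrix and adhesion genes were taken from a list of 65 outside the rule. Of these, 19 were in the pair table with 24 pairs, 16 of them with lower miRNAs. Lower miRNAs held 54.7% of all pairs, and 14.4% of all protein-coding genes were found by their current symbol. Nectin1 of the list was found under its older symbol Pvrl1, so the 14.4% is not on the same footing as the list. The list was chosen with earlier results of these data known, and its counts were not tested against these shares. Among matrix glycoproteins and proteoglycans 6 of 23 genes were found, with Sdc1, a syndecan, predicted for miR-702-5p and miR-760-3p, and Cd44, the hyaluronan receptor, for miR-330-3p. Among enzymes and inhibitors that process matrix 4 of 12 were found, with Reck, a membrane inhibitor of MMPs, predicted for miR-207 and miR-330-3p, and Plod1, a collagen lysyl hydroxylase, for miR-326-5p and miR-503-5p. The immunoglobulin-type adhesion list had 4 of 9 genes, with L1cam predicted for miR-207 and miR-328a-5p. The junction list had 4 of 12, with Gja1, the main gap junction protein of heart muscle cells, and Ocln each predicted for miR-328a-5p, and Pkp2, a desmosome protein, for miR-362-3p. The focal adhesion list had 1 of 9, Pxn, predicted for the higher miR-501-3p and miR-532-5p.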

How the data were processed

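RNA of 6 samples was hybridized to Affymetrix miRNA arrays. Expression Console and MAS5 stand in the submitters' processing notes, whereas the deposited headers name RMA with detection calls, and which made the values is not settled. The deposited values are log2 signals, per the authors' note sheet, from -0.16 to 15.43, and the 22 listed miRNAs carry the same signals there and in the value table. RMA draws arrays to a common distribution and would reduce an overall shift. The authors' deposited table also holds detection calls (used here), and p-values, a ratio (fold) and geometric mean intensities, which are not reported here. miRanda gave a score and an energy score per site, and the deposited note sheet states that the authors kept scores above 150 and energies under -20. The miRanda version and the sequences searched are not given in the sources used here. In the table of sites, 18 lines were emptied before this work; all 59 member pairs kept a site.

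Column names gave the sample of each of the 6 arrays, and 0 value columns stayed unmapped. The 728 mature probe sets were fitted with limma 3.58.1 (lmFit and eBayes, Benjamini-Hochberg) in R 4.3.3, and errors are its moderated SE. Site counts used Python 3.11.15 and pandas 2.3.3. Seed classes were read from the deposited alignments. Both steps were tested on simulated data. The members, roles and lists were chosen with earlier results of these data known; the rule for naming genes (most miRNAs, extreme score or energy, repeated sites, leaders of each role) took 38 of the 42, and 4 more were named after their values were seen, to account for the members. 1 member is counted but not reported here by name. Alternatives covered normalization, dim signals, single arrays, the replicate block, and score, energy and seed limits.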

Additional observations from a re-analysis of the deposited data

How the results depend on the processing

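None of the 15 targeting miRNAs changed direction under any of the alternatives tried: quantile normalization, median centring, a filter on dim probe sets, a floor of 4, a replicate block, trend and robust fitting, leaving out each array and, chosen after seeing the data, centring on bright miRNAs (mean of at least 5). Most of these settings could not have changed a direction. The filter, the block and the trend and robust fit leave each difference as it is. For the 14 miRNAs whose groups do not overlap, neither an omitted array nor a floor can reverse the sign. The 15 were also listed by this contrast on the same arrays, so nothing is read from the unchanged directions. The sizes did change: with centring on bright miRNAs the 10 higher ones differed by 0.2 to 1.61 log2 in place of 0.75 to 2.16. miR-207 and miR-702-5p could not be tested with the floor of 4, nor miR-207 with the filter at a mean of 2. The count of mature miRNAs with an adjusted p under 0.05 ran from 0 to 23 when an array was left out (23 without exosome replicate 3, 1 without untreated replicate 1). At an unadjusted p under 0.05 it ran from 38 without exosome replicate 2 to 145 without exosome replicate 3, and was 57 without exosome replicate 1. Beside 106, it was 68 after quantile normalization, 61 with the filter, 70 with the floor and 199 with centring on bright miRNAs. Of these calls 83.0% were higher, but 52.9% after quantile normalization and 3.52% with centring on bright miRNAs, where the median difference over all mature miRNAs was -0.47 log2 in place of 0.08; the cause was not tested. Whether the replicate numbers pair the samples is not settled. With group means subtracted, same-numbered arrays correlated at 0.0352, 0.324 and 0.291, and differently numbered ones at -0.376 to 0.243. With the replicate block 0 miRNAs passed the adjusted and 111 the unadjusted threshold. Among pairs, an energy limit of -25 gave 80.0% with lower miRNAs in place of 57.6%, and 73.1% in place of 54.7% over all pairs. Sites of the lower miRNAs had lower energies at the median. The share of members with 2 or more miRNAs, 31.0%, was 15.4% with that limit, 15.4% with a score limit of 160 and 18.4% without miR-328a-5p, all of which leave fewer pairs. The median score was 163 among sites of at least 160, by construction. The median energy was -25.16 with the best site of each pair and -25.47 with the score limit, in place of -24.87. For both shares the other alternatives stayed within the 95% Wilson interval (44.9% to 69.4% for lower pairs, 19.1% to 46.0% for 2 or more miRNAs). These intervals cover counting only and treat pairs or genes as independent, although miR-328a-5p alone holds 11 pairs. The alternatives also reuse many of the same pairs, so staying inside is a weak check.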
